A study of Mus musculus with 24 samples.

Results

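The MHC class I antigen presentation pathway was followed here through 10 genes: H2-K1, H2-D1, B2m, Tap1, Tap2, Tapbp, Psmb8, Psmb9, Psmb10 and Nlrc5. Its members were all probe sets whose platform annotation gave exactly 1 of these symbols, which found 27 of the 45077 probe sets in the table, for 10 of the 18193 genes named by a probe set with a single symbol. H2-D1 had 9 of them, H2-K1 and Tap1 had 4 each, B2m, Tapbp and Psmb8 had 2 each, and Tap2, Psmb9, Psmb10 and Nlrc5 had 1 each. A probe set is the group of short probes from which the array reports 1 value.

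The samples were embryonic cortical neurons of Il1rap-/- mice, and this genotype was shared by all groups, controls included. Il1rap encodes AcP, which IL-1 receptors need beside their ligand-binding chain to signal, and AcPb, an isoform of it made in the nervous system. Of 4 arms, the first expressed CD25, a chain of the IL-2 receptor and so the arm with no IL-1 accessory chain. The second expressed AcP, the third AcPb, and the fourth AcP and AcPb together. Each arm was left unstimulated (control) or given IL-1b at 10 ng/ml, RNA being taken at 4 h. With 3 arrays in each of the 8 groups, 24 Affymetrix arrays were read. The sources used here do not say how the proteins were introduced or whether replicate arrays stand for separate cultures, so a p-value here speaks only of the spread between these arrays.

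MHC class I molecules show peptides from inside the cell to CD8+ T cells. A heavy chain (H2-K1 or H2-D1 in the mouse) pairs with the light chain beta-2 microglobulin, made by B2m. The immunoproteasome subunits Psmb8, Psmb9 and Psmb10 cut proteins into peptides, the paired transporter proteins Tap1 and Tap2 carry these into the endoplasmic reticulum, and tapasin, made by Tapbp, bridges the transporter and the empty heavy chain. Nlrc5 is a coactivator of class I genes. Neurons are known for low class I levels, and NF-kB and interferon-activated factors are known to bind upstream of heavy chain genes and of B2m.

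Of the 10 members, 7 lie on chromosome 17 in the RefSeq annotation of GRCm38.p6, the build of all coordinates here. Psmb9, Tap1, Psmb8 and Tap2 form 1 cluster at chr17:34182030-34216321, in which Psmb9 (minus strand) and Tap1 (plus strand) run away from each other and 225 bases separate their starts. H2-K1 lies at chr17:33996012-34000619, Tapbp at chr17:33919478-33929290 and H2-D1 at chr17:35263094-35267497. B2m lies at chr2:122147687-122153082, while Psmb10 (chr8:105935728-105938392) and Nlrc5 (chr8:94434335-94527272) are on chromosome 8.

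RefSeq promoter entries were at hand for 8 of the 10 members, and the 250 bases before each start were searched on both strands. The kappaB consensus, the letters NF-kB proteins are known to bind, matched upstream of 3 of the 8 members, H2-K1, H2-D1 and B2m, against 7.25% of 32851 promoters of the same length. The interferon response core GAANNGAAA matched upstream of H2-K1 and H2-D1 (6.31% of all promoters), and the longer core of the interferon-stimulated response element (ISRE) upstream of B2m (2.98%). The letters TTCNNNGAA, which STAT proteins are known to bind, matched upstream of Psmb8 (7.02%). The stretches that hold the first 3 motifs are shown because the probe sets of H2-K1, H2-D1 and B2m carry most of the results. Each is written 5′ to 3′ on the strand of its gene, and capitals mark the matches, the kappaB match being GGGGATTCCCC in the heavy chains, where matches overlap, and GGAAAGTCCC in B2m.
H2-K1, chr17:34000429-34000458, minus strand: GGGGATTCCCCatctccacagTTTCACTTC
H2-D1, chr17:35262923-35262952, plus strand: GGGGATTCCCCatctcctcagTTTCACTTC
B2m, chr2:122147548-122147570, plus strand: GAAACTGAAAatgGGAAAGTCCC
The H2-K1 and H2-D1 stretches differed at 1 of 30 bases, and over the 250 upstream bases 174 of 190 aligned bases were identical (91.6%). In the first of 2 entries for H2-K1 the stretch ran from 111 to 82 bases before the start, in H2-D1 from 171 to 142, and in B2m from 139 to 117. In B2m the order was turned, the interferon core lying first. A match of letters is a description and does not show that a factor was bound in these cells.

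For B2m, the member with the brightest values, the whole upstream window is given (chr2:122147437-122147686, plus strand), with the same capitals.
B2m upstream: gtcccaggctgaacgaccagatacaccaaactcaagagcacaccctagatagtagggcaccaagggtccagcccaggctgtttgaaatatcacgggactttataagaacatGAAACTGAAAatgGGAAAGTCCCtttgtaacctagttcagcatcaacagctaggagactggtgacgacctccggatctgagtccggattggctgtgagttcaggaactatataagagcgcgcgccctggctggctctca

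The heavy chain genes also resemble each other in their transcripts, and 11 of their 13 probe sets end in _x_at, a suffix that marks probes able to match other sequences. A value named H2-K1 or H2-D1 below is therefore uncertain as to which class I gene it came from, and each probe set is given by its identifier.

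Array medians lay between 55.1 and 66.5 intensity units, and replicate arrays correlated at 0.963 to 0.985. On every array 16.4% to 18.2% of the values were below 0, so a value around 0 means only that no signal was seen over background. All 10 neuron markers (Tubb3, Map2, Snap25 and others) were tested, none was called in any of the 11 comparisons, and their summed intensity lay between 37865 and 45736 on every array. Glial markers were also seen. The sum of 9 astrocyte markers had group means from 19104 to 21488, and that of 8 oligodendrocyte lineage markers from 5151 to 7309. The arrays read bulk RNA, so which cells gave a response was not tested. Of 15 microglia and macrophage markers, 14 were on the array and 6 passed the filter given below, Csf1r, C1qb, Tyrobp, Cd68, Trem2 and Fcgr3. Among the others, Aif1, C1qa, C1qc and Tmem119 had means below 0 in all 8 groups. The AcP+AcPb arrays carry other codes in their array names (22 and 23) than the arrays of the other arms (21), and only 1 of the 3 controls of that arm shares a code with its IL-1b arrays. The meaning of the code was not given in the sources used here.

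To be tested, a probe set had to exceed the 40th percentile of its array, which lay between 29.8 and 37.2 units, on at least 3 arrays. Of the 27 member probe sets 17 passed, from 8 genes. They were all 4 of H2-K1, 5 of 9 of H2-D1, both of B2m and of Tapbp, 1 of 4 of Tap1, and those of Tap2, Psmb10 and Nlrc5. No probe set of Psmb8 or Psmb9 passed. The test was limma's on log2(value + 16), a change was called at an adjusted p under 0.05 over the 30468 probe sets tested, and ± is an SD over 3 arrays for an intensity and a standard error for a log2 change.

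With IL-1b, H2-K1 signal rose on 2 of 4 probe sets in neurons that expressed AcP and on 1 in those that expressed AcP+AcPb, and no H2-D1 probe set was called. In the AcP arm 3 of the 17 tested member probe sets rose, 2 of H2-K1 and that of Tap2, and none fell, where 0.404% of all probe sets tested were called (123). Tap2 passed the filter only through CD25 arrays and IL-1b arrays, so its call adds no separate support to this count. In the AcP+AcPb arm 1 rose, the brighter of the same H2-K1 probe sets, where 0.256% were called (78). B2m, Tap1, Tapbp, Psmb10 and Nlrc5 were called in no IL-1b response.

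No member was called in the AcPb arm, where 0.00985% of all probe sets tested were (3), or in the CD25 arm, where 0% were. At an unadjusted p under 0.05 stood 10 of the 17 members in the AcP arm, 7 in the AcP+AcPb arm and 1 each in the AcPb and CD25 arms. Of all 30468 probe sets tested, 2510, 2981, 3073 and 1712 stood there in the AcP, AcP+AcPb, AcPb and CD25 arms. Among the 17 tested members the median log2 change was 0.30 in the AcP arm and 0.26 in the AcP+AcPb arm, against -0.06 in the CD25 arm and 0.04 in the AcPb arm. Over all tested probe sets the 4 medians lay between -0.01 and 0.01. The log2 change was above 0 for 14 of 17 members in the AcP arm, 15 in the AcP+AcPb arm, 9 in the AcPb arm and 4 in the CD25 arm.

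The H2-K1 probe set 1425336_x_at carried the clearest response. In the AcP arm its control arrays read 224, 239 and 177 and its IL-1b arrays 367, 405 and 382. With AcP+AcPb the controls read 239.7, 257 and 255 and the IL-1b arrays 353, 346 and 405. In both arms every IL-1b array lay above every control array.

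In the AcPb arm the same probe set read 211, 212 and 208 without IL-1b and 238, 223 and 241 with it. These arrays did not overlap either, but their means, 210.2 ± 2.34 and 234 ± 9.74, were close. In the CD25 arm the controls read 268, 311 and 341 and the IL-1b arrays 323, 303 and 322, so the IL-1b arrays lay within the range of the controls. 

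On the log2 scale 1425336_x_at rose by 0.81 ± 0.09 in the AcP arm (1.76-fold, adjusted p = 6.52e-05, limma) and by 0.52 ± 0.09 in the AcP+AcPb arm (1.44-fold, adjusted p = 0.0156). The change was 0.14 in the AcPb arm, with a 95% interval from -0.05 to 0.34 (adjusted p = 0.647), and 0.05 in the CD25 arm, from -0.15 to 0.24 (adjusted p = 0.95). The AcP call was lost only where the 6 arrays of that arm were fitted alone (adjusted p = 0.202), out of 18 alternatives. The AcP+AcPb call was lost in 5 of 18. These were the fit to that arm alone (0.277), the array code as a block (0.372), and leaving out control 1 (0.0657), control 2 (0.0604) or IL-1b array 3 (0.132).

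The other responding H2-K1 probe set, 1427746_x_at, was dimmer. Its AcP controls read 14.3, 31.8 and 20.7 and its AcP IL-1b arrays 62.5, 78.3 and 69.1, with no overlap. With AcP+AcPb the controls read 52.9, 39.2 and 32.0 and the IL-1b arrays 45.7, 74.0 and 73.6, which overlapped. It rose by 1.19 ± 0.21 in the AcP arm (2.28-fold, adjusted p = 0.00971, limma), while its change was 0.48 ± 0.21 in the AcP+AcPb arm (adjusted p = 0.448). The AcP call was lost in 4 of 16 alternatives, among them leaving out AcP control 1 (0.074) or AcP IL-1b array 2 (0.0731).

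The remaining H2-K1 probe sets did not share the response. The mean of 1451931_x_at was 245 ± 62.3 in AcP controls and 237 ± 10.6 with IL-1b, and its log2 changes in the 4 arms lay between -0.26 and 0.35. The mean of 1450534_x_at lay between 27.5 and 51.1 in the 8 groups, and its log2 changes lay between -0.10 and 0.33. Probe sets of the same symbol thus disagreed.

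**Figure D1:**
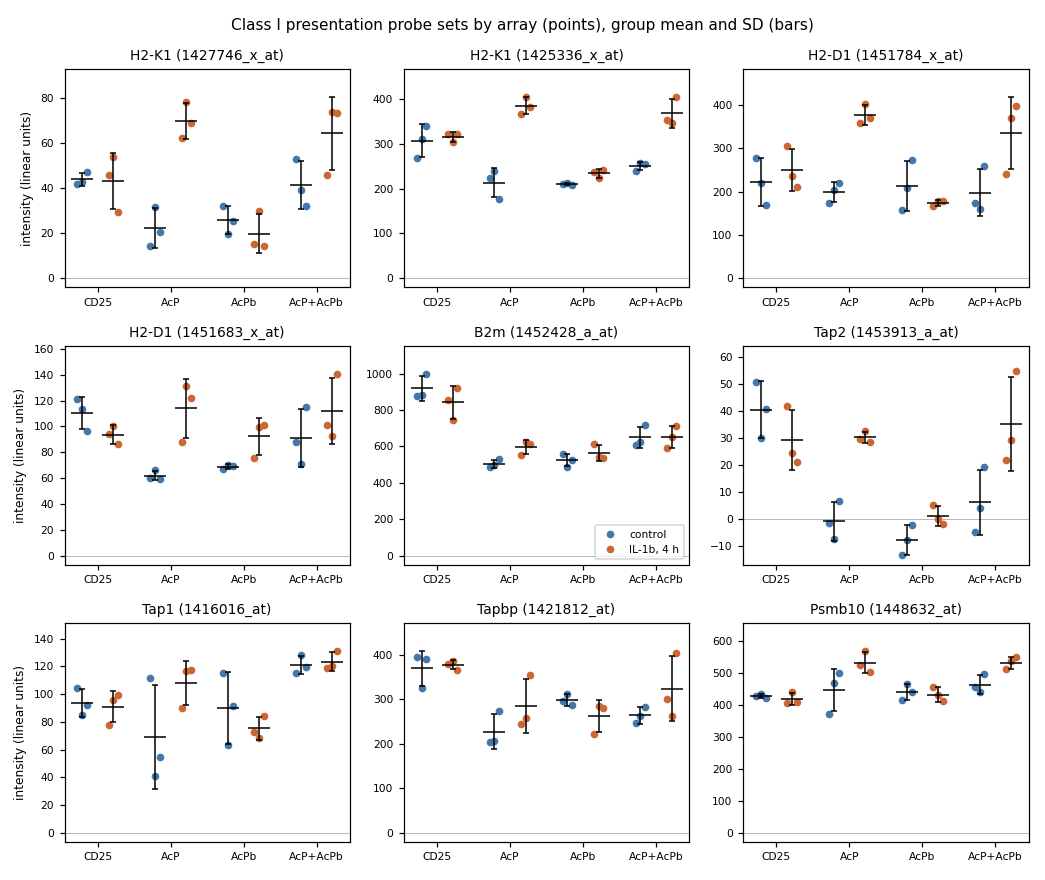
Intensity (linear units) of 9 member probe sets (for each heavy chain the 2 with the largest AcP response, otherwise the brightest tested) on each of the 24 arrays, by arm, with blue points for control and orange points for IL-1b, and bars for the group mean and SD of 3 arrays. The panel of H2-K1 1425336_x_at shows the AcP IL-1b arrays at 367 to 405 over controls at 177 to 239, and the B2m panel shows the CD25 arrays at 745 or more and all other arrays at 717 or less.

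H2-D1, the other classical heavy chain, gave values in the same direction that missed the threshold. On 1451784_x_at the AcP controls read 173, 203 and 219.5 and the IL-1b arrays 359, 402 and 369, with no overlap. The AcP+AcPb controls read 174, 159 and 259 and the IL-1b arrays 241, 369 and 397, with 1 IL-1b array below the highest control. Its log2 changes were 0.87 ± 0.22 in the AcP arm (adjusted p = 0.109) and 0.72 ± 0.22 in the AcP+AcPb arm (adjusted p = 0.242). In the AcPb arm its change was -0.24 ± 0.22 (adjusted p = 0.771).

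On 1451683_x_at, a dimmer H2-D1 probe set, the AcP controls read 60.2, 66.2 and 59.5 and the IL-1b arrays 88.0, 132 and 122. Its log2 change in the AcP arm was 0.72 ± 0.16, with an adjusted p of 0.0526 that crossed the threshold under some alternatives, among them quantile normalization, centring of array medians and leaving out AcP IL-1b array 1. The brightest H2-D1 probe set, 1425545_x_at, changed by 0.23 ± 0.18 in the AcP arm (adjusted p = 0.805). It read 286, 441 and 278 in AcP controls and 361, 438 and 369 with IL-1b, which overlapped. The other 2 tested H2-D1 probe sets had no group mean above 50.5, and the 4 untested ones none above 8.77.

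B2m was the brightest member, and its IL-1b changes were small in every arm. On 1452428_a_at the AcP controls read 486, 498 and 529.6 and the IL-1b arrays 555, 625.5 and 615. The AcP+AcPb controls read 609, 623 and 717 and the IL-1b arrays 593, 652 and 712. The AcP arrays did not overlap and the AcP+AcPb arrays did. The log2 change was 0.24 ± 0.09 in the AcP arm (1.18-fold, adjusted p = 0.477, 95% interval 0.04 to 0.43) and 0.00 ± 0.09 in the AcP+AcPb arm (interval -0.19 to 0.20). The other B2m probe set, 1449289_a_at, gave 0.21 ± 0.10 and 0.01 ± 0.10 for the same comparisons.

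Tap2, one chain of the peptide transporter, rose from values around 0. Its AcP controls read -1.59, -7.55 and 6.48 and its AcP IL-1b arrays 29.6, 32.4 and 28.5. The AcP+AcPb controls read -4.75, 4.15 and 19.1 and the IL-1b arrays 21.7, 29.2 and 54.8. Neither arm showed overlap. The AcPb arrays read -13.4, -7.77 and -2.12 without IL-1b and 5.27, -0.03 and -1.74 with it. They did not overlap, but all 6 lay around 0.

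Tap2 rose by 1.36 ± 0.26 in the AcP arm (adjusted p = 0.0202, limma), and its change was 1.14 ± 0.26 in the AcP+AcPb arm (adjusted p = 0.0891). Since the controls lie around 0, the size of these changes depends on the added 16 and no fold is given. The IL-1b level in AcP neurons, 30.2 ± 2.02, itself lay near the 40th percentile of the arrays. It was below the CD25 control mean of 40.4, against which it was not tested. No control array of either arm reached the filter's threshold, so Tap2 was tested only through CD25 arrays and IL-1b arrays. Its call as higher in the AcP arm therefore lends no separate support. The AcP call was lost in 8 of 17 alternatives, among them an added 64 in place of 16 (0.0536) and leaving out AcP control 1 (0.103), AcP control 2 (0.112) or AcP IL-1b array 1 (0.0697), 2 (0.11) or 3 (0.0645). Without control 3, Tap2 was called in the AcP+AcPb arm too.

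Tap1, the other chain of the transporter, was not called. Its tested probe set 1416016_at read 111, 40.6 and 54.9 in AcP controls and 89.9, 117 and 117 with IL-1b, so 1 control lay within the IL-1b arrays. Its log2 change was 0.63 ± 0.21 in the AcP arm (adjusted p = 0.362) and 0.03 ± 0.21 in the AcP+AcPb arm (adjusted p = 0.986). Without AcP control 1, the high one, it was called in the AcP arm. The 3 untested Tap1 probe sets had no group mean above 26.9.

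Tapbp, which makes tapasin, was not called either. On 1450378_at the AcP+AcPb controls read 95.3, 89.3 and 102 and the IL-1b arrays 146, 151 and 144, with no overlap, and the log2 change was 0.55 ± 0.15 (adjusted p = 0.207). In the AcP arm it was 0.46 ± 0.15 (adjusted p = 0.323), with overlap. The brighter 1421812_at changed by 0.30 ± 0.15 and 0.26 ± 0.15 in these arms (adjusted p = 0.643 and 0.605).

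Among the immunoproteasome subunits only Psmb10 was measured above the filter. It read 371, 466 and 497 in AcP controls and 522, 567 and 503 with IL-1b, and 455, 438 and 494 against 510.4, 535 and 548 in the AcP+AcPb arm. Neither arm overlapped, yet the changes were small, 0.26 ± 0.08 (1.19-fold, adjusted p = 0.326) and 0.19 ± 0.08 (1.14-fold, adjusted p = 0.451). Psmb8 had group means from -26.9 to 5.76 over its 2 probe sets and Psmb9 from -26.9 to 8.52, so neither was seen over background in any group. An array with no detection calls does not tell a dim gene from an absent one.

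Nlrc5 stayed dim, with group means between 16.4 and 28.7. Its log2 changes with IL-1b lay between -0.22 and -0.08 in the 4 arms, each with a standard error of 0.21, and none was called.

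**Figure D2:**
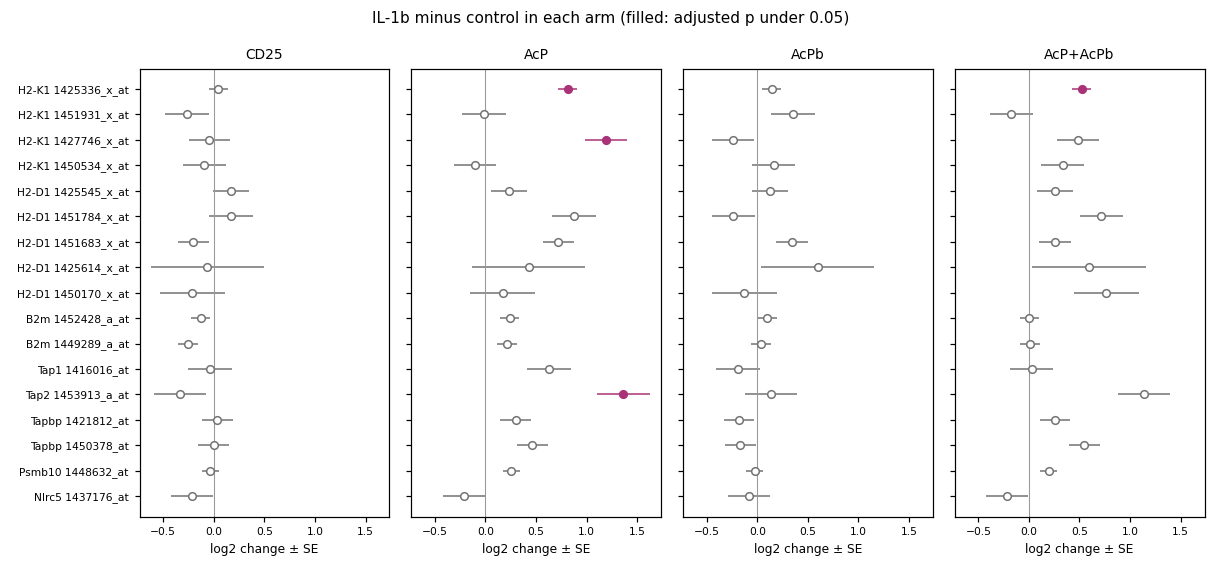
Log2 change (IL-1b minus control, on log2(value + 16)) of the 17 tested member probe sets in each arm, with lines for ± 1 standard error and filled points for an adjusted p under 0.05. Filled points are the H2-K1 probe sets 1425336_x_at and 1427746_x_at and Tap2 in the AcP panel and 1425336_x_at alone in the AcP+AcPb panel.

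All 27 member probe sets, tested or not, can be compared by overlap of the raw arrays. All 3 IL-1b arrays exceeded all 3 controls for 9 of the 27 in the AcP arm, where 4.53% of all 45037 probe sets did. The 9 came from 6 genes, 5 of them from heavy chains, and included 1 of H2-D1 and 1 of Psmb8 whose values in that arm were all below 0. With AcP+AcPb it was 4 of 27 against 8.58%, in the AcPb arm 3 of 27 against 8.96%, and in the CD25 arm 1 of 27 against 6.07%. The 4 in the AcP+AcPb arm were H2-K1 1425336_x_at, Tap2, Tapbp 1450378_at and Psmb10. The 3 in the AcPb arm were H2-K1 1425336_x_at, H2-D1 1451683_x_at and Tap2. In the other direction, all 3 IL-1b arrays lay below all 3 controls for 2 of 27 in the CD25 arm (B2m 1449289_a_at and H2-D1 1452544_x_at, against 7.12% of all probe sets) and 2 in the AcPb arm (both of Tapbp, against 10.13%). It was 0 of 27 in the AcP arm (5.53%) and 0 in the AcP+AcPb arm (6.51%).

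The responses of the arms were then compared with each other, which asks whether the accessory chain changed the effect of IL-1b. The H2-K1 probe set 1425336_x_at responded more in AcP than in CD25 neurons, by 0.77 ± 0.13 on the log2 scale (adjusted p = 0.0116, limma). It was the 1 member called there, where 0.19% of all tested probe sets were called (58). The call was lost under quantile normalization (adjusted p = 0.0525) and in the fit to the arrays compared alone (0.241). On this probe set all AcP controls lay below all CD25 controls, at 69.6% of the CD25 control mean. These control arrays enter the difference, and the levels with IL-1b were not tested against CD25. For Tap2 the difference was 1.70 ± 0.37 (adjusted p = 0.089), for H2-K1 1427746_x_at 1.23 ± 0.29 (0.151) and for H2-D1 1451683_x_at 0.92 ± 0.22 (0.16).

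Between AcPb and AcP neurons, the differences in response of the same probe sets did not pass the threshold. The H2-K1 response was smaller with AcPb by 0.67 ± 0.13 on 1425336_x_at (difference of -0.67, 95% interval -0.95 to -0.39, adjusted p = 0.0513) and by 1.43 ± 0.29 on 1427746_x_at (-1.43, interval -2.04 to -0.81, adjusted p = 0.0689). For H2-D1 1451784_x_at the difference was -1.11 ± 0.30 (adjusted p = 0.29) and for Tap2 -1.23 ± 0.37 (0.373). None of the 17 members was called, against 0.148% of all tested probe sets (45), while 8 members had an unadjusted p under 0.05, as had 2390 of all 30468 probe sets. Several alternatives moved the 2 H2-K1 probe sets past the threshold, among them centring of array medians (both) and leaving out AcP control 2 (both) or AcPb IL-1b array 2 (1427746_x_at).

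Adding AcPb to AcP gave no called difference in the members. The H2-K1 response on 1425336_x_at was 0.29 lower on the log2 scale in AcP+AcPb than in AcP neurons (-0.29, 95% interval -0.57 to -0.01, adjusted p = 0.96). On 1427746_x_at the difference was -0.71 (interval -1.32 to -0.09, adjusted p = 0.925) and for Tap2 -0.23 ± 0.37. Of all tested probe sets 0.00328% (1) were called, and 3 members had an unadjusted p under 0.05, as had 1559 of all 30468. Against AcPb alone, AcP+AcPb neurons had a larger response by 0.38 on H2-K1 1425336_x_at (interval 0.10 to 0.66, adjusted p = 0.82), by 0.95 on H2-D1 1451784_x_at (0.31 to 1.59, 0.763) and by 1.00 on Tap2 (0.23 to 1.77, 0.857). None was called, against 0.0919% of all tested probe sets (28), and 5 members had an unadjusted p under 0.05, as had 1529 of all 30468. These comparisons share arms, so they are not independent of each other.

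Without IL-1b, some class I genes were lower in the arms with an accessory chain than in CD25 neurons. Both B2m probe sets were lower in each of the 3 other arms than in CD25 neurons. So was Tap2, which passed the filter only through CD25 arrays and IL-1b arrays. Among the heavy chain probe sets, H2-K1 1425336_x_at and H2-D1 1451683_x_at were also lower in AcP and AcPb neurons. H2-K1 1427746_x_at and Tapbp 1421812_at were lower in AcP neurons. The other H2-K1 and H2-D1 probe sets were not called. No member was called higher in any of the 3 comparisons, and Tap1, Psmb10 and Nlrc5 were not called. Of all 30468 probe sets tested, 1266 were higher in AcP, 358 in AcPb and 1629 in AcP+AcPb neurons. A count of 0 among 17 members is near these shares.

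B2m 1452428_a_at read 877, 884 and 998 in CD25 controls. It read 486, 498 and 529.6 in AcP controls, 555, 488 and 528 in AcPb controls, and 609, 623 and 717 in AcP+AcPb controls. No array of the 3 other arms reached the lowest CD25 array, and the group means were 54.9%, 56.9% and 70.7% of the CD25 mean.

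On the log2 scale B2m 1452428_a_at was lower than in CD25 by 0.84 in AcP (-0.84 ± 0.09, adjusted p = 9.48e-06, limma), by 0.79 in AcPb (-0.79 ± 0.09, 3.44e-05) and by 0.49 in AcP+AcPb neurons (-0.49 ± 0.09, 0.00176). Its other probe set gave -0.79, -0.75 and -0.42 (adjusted p = 3.26e-05, 0.000125 and 0.00789). The B2m calls in AcP and AcPb neurons held in every alternative run.

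Tap2 read 50.8, 29.9 and 40.5 in CD25 controls, against values from -13.4 to 19.1 in the controls of the 3 other arms. It was lower by 1.64 in AcP (-1.64 ± 0.26, adjusted p = 0.000394), by 1.80 in AcPb (-1.80 ± 0.26, 0.000299) and by 1.31 in AcP+AcPb neurons (-1.31 ± 0.26, 0.00253). As above, these sizes depend on the added 16. No control array of the 3 other arms reached the filter's lowest threshold, 29.8 units. Tap2 was thus tested only through CD25 arrays and IL-1b arrays, CD25 controls among them. The groups where Tap2 is high helped to admit it, so its calls as lower than CD25 lend no separate support.

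The H2-K1 probe set 1425336_x_at had a mean of 307 ± 36.9 in CD25 controls, 213 ± 32.3 in AcP, 210.2 ± 2.34 in AcPb and 251 ± 9.49 in AcP+AcPb controls. It was lower by 0.50 in AcP (-0.50 ± 0.09, adjusted p = 0.00189) and by 0.51 in AcPb neurons (-0.51 ± 0.09, 0.00297), and its difference in AcP+AcPb neurons was -0.27 ± 0.09 (0.0621). With IL-1b its means were 385 ± 19.1 in AcP and 368 ± 32.3 in AcP+AcPb neurons, above the CD25 means, whereas B2m with IL-1b reached 598 ± 37.9 and 652 ± 59.5, below the CD25 control mean of 920 ± 68.0. These levels with IL-1b were not tested against CD25.

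H2-K1 1427746_x_at was lower in AcP neurons by 0.67 (-0.67 ± 0.21, adjusted p = 0.0447), a call lost in 9 of 16 alternatives. Among these were leaving out CD25 control 1, 2 or 3 (adjusted p = 0.0901, 0.0939 and 0.126) and AcP control 1 or 3 (0.163 and 0.0666). H2-D1 1451683_x_at was lower by 0.69 in AcP (-0.69 ± 0.16, adjusted p = 0.0077) and by 0.57 in AcPb neurons (-0.57 ± 0.16, 0.0445). The AcPb call was lost in 9 of 17 alternatives, among them leaving out any of the 6 arrays compared (adjusted p from 0.0572 to 0.159). H2-D1 1451784_x_at did not follow, with -0.13, -0.06 and -0.16 (adjusted p = 0.747, 0.92 and 0.645). The brightest H2-D1 probe set, 1425545_x_at, stood at 124.7%, 89.6% and 106.8% of the CD25 mean in AcP, AcPb and AcP+AcPb controls. H2-K1 1451931_x_at stood at 83.3%, 75.3% and 98.9%, and H2-K1 1450534_x_at at 84.7%, 99.1% and 61.7%. All of these overlapped the CD25 controls. The dim H2-D1 1425614_x_at and 1450170_x_at lay below the CD25 mean in each arm and were not called.

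Tapbp 1421812_at was lower by 0.67 in AcP neurons (-0.67 ± 0.15, adjusted p = 0.00776), with means of 370 ± 38.7 in CD25 and 227 ± 39.3 in AcP controls. Its difference was -0.46 ± 0.15 in AcP+AcPb (adjusted p = 0.0507) and -0.29 ± 0.15 in AcPb neurons (0.337). Psmb10 was the member whose controls were closest between arms, with means of 428 ± 6.24, 445 ± 65.9, 439.8 ± 24.8 and 462 ± 28.7 in CD25, AcP, AcPb and AcP+AcPb. All 3 AcP+AcPb controls lay above all 3 CD25 controls for Psmb10 (108% of the CD25 mean, adjusted p = 0.412) and for Tap1 1416016_at (129%, adjusted p = 0.326).

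The counts of members called lower were 7 of 17 in AcP, 5 in AcPb and 3 in AcP+AcPb neurons. Each count includes Tap2, whose calls lend no separate support for the reason given above. In AcP+AcPb neurons the others counted were the probe sets of B2m alone. Over all tested probe sets 6.13%, 3.42% and 8.92% were called lower, so the unstimulated arms differed widely and far beyond class I genes. In AcP+AcPb neurons the array code cannot be told apart from the arm for this comparison.

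**Figure D3:**
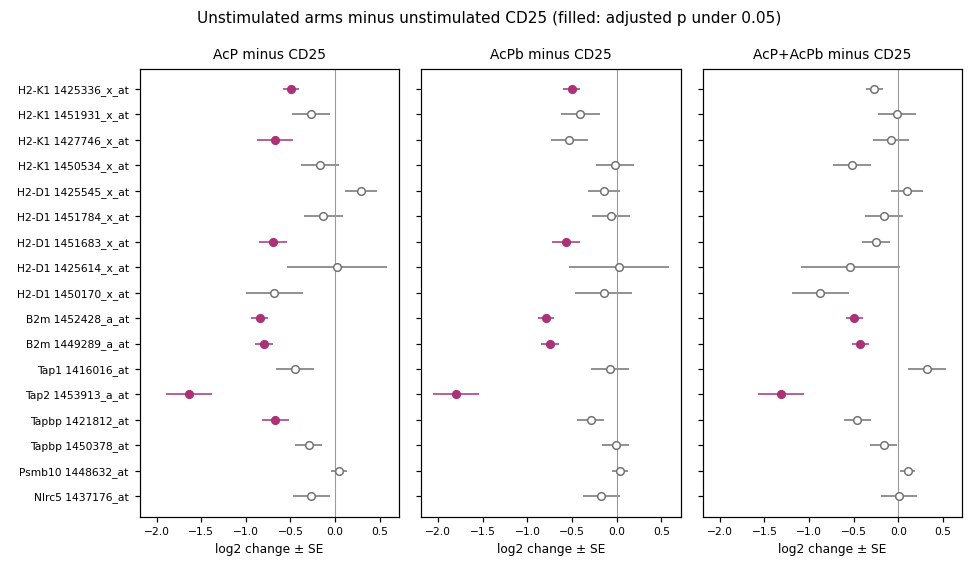
Log2 difference between unstimulated arms and unstimulated CD25 neurons for the 17 tested member probe sets, with lines for ± 1 standard error and filled points for an adjusted p under 0.05. Both B2m probe sets and Tap2 are filled in all 3 panels and lie between -0.42 and -1.80.

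Some markers of other cells differed between the same unstimulated groups, in both directions. The summed intensity of 13 endothelial, mural and fibroblast markers lay between 1912 and 2602 in CD25 controls, against 1034 to 1226 in AcP, 1197 to 1386 in AcPb and 1051 to 1383 in AcP+AcPb controls, with no overlap between CD25 and the other arms. Acta2, a smooth muscle actin, made up most of it, with means of 1741 ± 347 in CD25 and 635 ± 58.3 in AcP controls. The defining endothelial markers Pecam1 and Cldn5 did not take part, Pecam1 having means below 0 in all groups and Cldn5 none above 4.31. Of the 9 markers of this list that were tested, 3, 2 and 4 were lower in AcP, AcPb and AcP+AcPb neurons and none was higher. Over all probe sets tested, 6.13%, 3.42% and 8.92% were lower in these arms. The markers called lower were Acta2 and the pericyte gene Rgs5 in all 3 arms, the collagen gene Col3a1 in AcP and AcP+AcPb, and Col1a1 in AcP+AcPb neurons.

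Gfap, an intermediate filament of astrocytes, was lower by 1.98 in AcP (-1.98 ± 0.29, adjusted p = 0.000186) and by 1.73 in AcPb neurons (-1.73 ± 0.29, 0.00127). Aldh1l1 was lower in all 3 arms (-0.41, -0.36 and -0.35) and Aqp4 in AcP neurons (-0.67). Other astrocyte markers were higher, Slc1a2 and S100b in AcP (0.67 and 0.49) and AcP+AcPb neurons (0.55 and 0.52) and Aldoc in AcP neurons (0.50). The summed astrocyte markers overlapped between the control groups (15988 to 21938 in CD25, 19052 to 20846 in AcP). Summed microglia markers overlapped between CD25 (505 to 747), AcP (538 to 789) and AcPb controls (572 to 1136), and lay below all of these in AcP+AcPb controls (357 to 475). The 1 microglia marker called was Fcgr3, an Fc receptor gene, which was higher than in CD25 neurons in all 3 arms (1.05, 0.68 and 0.82, adjusted p = 8.66e-06, 0.00126 and 0.000119). Of the oligodendrocyte lineage markers, Olig1 was higher in AcP (0.56, adjusted p = 0.000824) and AcPb neurons (0.45, 0.00981), and Mbp was lower in AcP+AcPb neurons (-1.70, 0.0018). In bulk RNA, fewer cells of a type and less RNA per cell cannot be told apart, and the part of these markers in the class I difference was not tested.

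With IL-1b, no marker of the 5 cell type lists was called in any arm. The endothelial, mural and fibroblast sum with IL-1b was 1035 to 1397 in AcP and 1186 to 1489 in AcP+AcPb neurons, overlapping its controls, and 1427 to 1997 in AcPb neurons, above theirs. Summed microglia markers were 554 to 852 in AcP neurons with IL-1b, which overlaps their controls. In AcP+AcPb neurons they were 506 to 703 with IL-1b, above their controls of 357 to 475, and the part of this in the H2-K1 response was not tested.

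**Figure D4:**
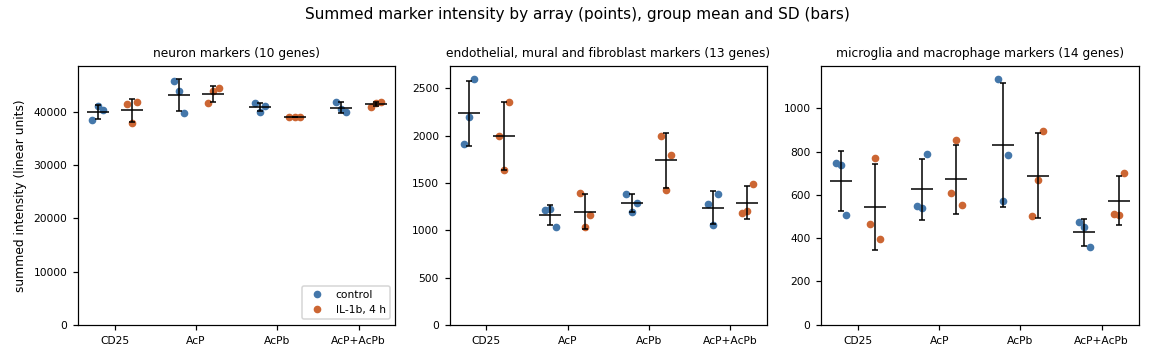
Summed intensity (linear units) of neuron, endothelial, mural and fibroblast, and microglia and macrophage markers on each array, by arm, with blue points for control, orange points for IL-1b and bars for the mean and SD of 3 arrays. In the middle panel the CD25 controls, at 1912 or more, lie above the controls of all other arms, at 1386 or less.

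Among the other pathway lists, only that of regulators held genes called in an IL-1b response. None of 8 tested peptide loading and trimming genes was called in any arm, including calreticulin and the trimming peptidase Erap1. Erap1 had a mean of 28.9 in AcP controls and 50.8 with IL-1b, and a log2 change of 0.65 ± 0.24 (adjusted p = 0.43). None of 6 proteasome activator or constitutive catalytic subunit genes was called, and their log2 changes in the AcP arm lay between -0.06 and 0.08. None of 5 tested genes of the MHC class II pathway was called.

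None of 7 tested other class I heavy chain genes was called either, though their values spread widely, with log2 changes from -0.94 to 0.19 in the AcP arm and from -0.21 to 0.83 in the CD25 arm. At the ends lay Fcgrt in the AcP arm (-0.94 ± 0.23, adjusted p = 0.104) and H2-M3, a heavy chain that presents formylated peptides, in the CD25 arm (0.83 ± 0.31, adjusted p = 0.883). H2-M3 had means of 116 in CD25 controls and 218 with IL-1b, and of 186 and 101 in the AcP arm. The summed intensity of the 13 genes on the array was 449 to 560.5 in CD25 controls and 629.98 to 683 with IL-1b, with no overlap. In AcP neurons it was 483 to 703 in controls and 416.5 to 499.9 with IL-1b, which overlapped.

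Among 24 genes for transcription factors and interferon signalling that act on class I genes, 2 rose in the AcP arm and none fell. Of all probe sets tested, 0.404% were called there. Irf1, an interferon-responsive factor known to drive class I genes, had means of 83.7 ± 21.2 in AcP controls and 294 ± 8.23 with IL-1b, a rise of 1.66 ± 0.31 (adjusted p = 0.0177, limma). Relb, an NF-kB subunit, had means of 53.7 ± 5.21 and 104 ± 12.4, a rise of 0.78 ± 0.16 (adjusted p = 0.0449). With AcP+AcPb, Relb rose by 0.92 ± 0.16 (adjusted p = 0.0147), and the Irf1 change was 1.44 ± 0.31 (adjusted p = 0.0658). Neither was called in the CD25 arm (-0.05 and -0.15) or in the AcPb arm (0.30 and 0.03).

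Of a list of interferons and the interleukin gene Il15, 3 of 6 genes were tested (Ifnb1, Ifna2 and Il15) and none was called. The interferon gene Ifnb1 had group means between 24.6 and 45.6, highest in AcP neurons with IL-1b, where its log2 change was 0.59 ± 0.26 (adjusted p = 0.544). Ifng had means between -0.26 and 9.96, around background.

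In unstimulated cells, 5 of the 24 regulators were lower in AcP, 3 in AcPb and 5 in AcP+AcPb neurons than in CD25 neurons. Over all probe sets tested, 6.13%, 3.42% and 8.92% were lower in these arms. In AcP neurons 1 regulator was higher, as were 1266 of all 30468 probe sets tested, which is near the same share. Irf9, part of the interferon-activated complex, had means of 169 ± 23.7 in CD25 controls and 75.8 ± 3.26 in AcP controls, with differences of -1.01, -0.82 and -0.76 in the 3 arms (adjusted p = 4.01e-06, 7.31e-05 and 8.95e-05). Like Irf9, Stat3, a cytokine-activated factor, was lower in all 3 arms, with -1.11, -1.01 and -0.86 (1.36e-05, 8.59e-05 and 0.000211). Irf1 was lower in AcP (-1.43, 0.00557) and AcP+AcPb neurons (-1.26, 0.0109), and its mean in CD25 controls, 254 ± 65.8, compares with 294 ± 8.23 in AcP neurons with IL-1b. Cd1d1, a class I-like heavy chain that presents lipids, was also lower in all 3 arms (-0.55, -0.41 and -0.76, adjusted p = 0.00162, 0.0249 and 9.43e-05). The other regulators called were Irf2 and Rela (lower) and Rfxank (higher) in AcP, Relb (lower) in AcPb, and Irf2 and Jak2 (lower) in AcP+AcPb neurons. Of the remaining pathway genes, the peptidase gene Tpp2 was lower in AcP and AcP+AcPb neurons (-0.35 and -0.41), Psme1 and Pomp were lower in AcP+AcPb neurons (-0.25 and -0.17), and the heavy chain-like Fc receptor gene Fcgrt was higher in AcP neurons (0.77).

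Among genes that are no members, those most like the called members over the 8 group means were named by Pearson's r. For H2-K1 1425336_x_at they were Zfp36l1 (r = 0.983), Ier3 (0.979) and the chemokine gene Cxcl5 (0.979). For Tap2 they were the adhesion molecule gene Vcam1 (0.992), the ceruloplasmin gene Cp (0.992) and Cdkn2b (0.989). The 8 means come from the same arrays as the responses above, so these values describe the pattern and carry no test.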

How the data were processed

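The authors deposited linear intensity values, 1 for each probe set, from 24 one-colour arrays. Their summary and scaling were not given in the sources used here. Column-purified RNA was labelled with biotin, per the labels' protocols. Groups came from the labels. Of 45077 probe sets, 40 controls were left out, and the platform annotation gave 1 symbol to 34945, several to 932 and none to 9160. Values below 0 were set to 0, 16 was added, and log2 was taken. This understates changes of dim probe sets. limma (version 3.58.1, R 4.3.3) fitted 8 group means over all 24 arrays (16 residual and 1.94 prior degrees of freedom). P-values are two-sided and Benjamini-Hochberg adjusted within each of 11 comparisons over 30468 probe sets. With 3 arrays against 3, an exact permutation test cannot go under 0.1. The script was tested on simulated data. All member probe sets are accounted for, and full values are given for those called or brightest. The members and lists were chosen with earlier results of these data known. Lists used the brightest probe set of each gene. Alternatives changed 1 choice at a time. Same-numbered arrays of different groups did not deviate together on average (mean r 0.00788, from -0.186 to 0.272). This gave no sign that the numbers pair samples but cannot exclude it, and no pairing was fitted.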

Additional observations from a re-analysis of the deposited data

Results flagged for a closer look

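The IL-1b responses of AcP and CD25 neurons differed for H2-K1 1425336_x_at by 0.77 on the log2 scale, by limma's test of the difference itself (adjusted p = 0.0116). All 3 AcP IL-1b arrays lay above the AcP controls, and the CD25 IL-1b arrays lay within the range of their controls. The AcP controls themselves lay below all CD25 controls, at 69.6% of the CD25 control mean. This lower start is part of the difference in response, and the levels with IL-1b were not tested against CD25.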

How the results depend on the processing

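No named change turned its direction in any alternative, and 7 of 20 kept their call in all. The CD25 and AcPb responses and the AcP+AcPb minus AcP difference stayed at 0 called members throughout. In the AcP response (3 called) quantile normalization, centred medians and the array code as a block gave 4, array weights 1, the fit to the arrays compared alone 0, and leaving out 1 array 1 to 3 (1 without IL-1b array 2). In the AcP+AcPb response (1 called) the array code as a block gave 0, the arrays compared alone 0, and leaving out 1 array 0 to 2 (0 without control 1, control 2 or IL-1b array 3, 2 without control 3). In AcP minus CD25 (1) quantile normalization gave 0, the array code as a block 2, the arrays compared alone 0, and leaving out 1 array 1 to 2 (2 without CD25 IL-1b array 1 or AcP control 3). In AcPb minus AcP (0) quantile normalization, an added 64, the filter at the 60th percentile and the brightest probe set of each gene gave 1, centred medians 2, and leaving out 1 array 0 to 2 (2 without AcP control 2, 1 without AcPb IL-1b array 2). In AcP+AcPb minus AcPb (0) the arrays compared alone gave 1, Tapbp. Unstimulated, AcP against CD25 (7) gave 4 with the brightest probe sets, with array weights and with the arrays compared alone, and AcPb (5) gave 3 with the brightest probe sets. The brightest probe sets leave at most 1 for each of the 8 tested genes in place of 17. A lower count there can come from the probe sets left out. Within these counts, H2-K1 1427746_x_at lost its AcP call in 9 of 16 alternatives and H2-D1 1451683_x_at its AcPb call in 9 of 17. AcP+AcPb (3) gave 5 with centred medians and with array weights, 2 with the arrays compared alone, and leaving out 1 array gave 3 to 5 (5 without control 3). The array code as a block cannot estimate that comparison. With the replicate block the AcP response again had 3 called members and the AcP+AcPb response 1. The number of arrays, 3 a group, and signal near background (Tap2, Psmb8, Psmb9, Nlrc5) limit what could be seen.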

Other observations

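Probe sets with a member's symbol among several were not members. The probe set 1424948_x_at, annotated to both H2-K1 and H2-D1, had means of 29.6 ± 16.2 in AcP controls and 55.1 ± 8.74 with IL-1b (log2 change 0.69 ± 0.18, adjusted p = 0.135), and of 33.1 ± 4.80 and 59.5 ± 7.51 in the AcP+AcPb arm (0.62 ± 0.18, adjusted p = 0.217). Its change was -0.02 in the AcPb arm and -0.22 in the CD25 arm. The other one tested, 1451593_at, annotated to H2-Q5 and H2-K1, had means of 10.14 ± 23.2 in AcP controls and -26.8 ± 49.3 with IL-1b (log2 change -0.36 ± 0.57, adjusted p = 0.936), and a change of 0.45 ± 0.57 in the AcP+AcPb arm (adjusted p = 0.849).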
